A study of Mus musculus with 6 samples.

Results

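The retinoid handling genes of skin were read as 9 genes of 21959 in the deposited count table, taken by symbol: Crabp1, Crabp2, Stra6, Aldh1a1, Aldh1a2, Aldh1a3, Cyp26b1, Rdh10 and Dhrs9. The libraries were made by RNA-seq of full-thickness back skin from male C57BL/6 mice shaved in telogen at 7 weeks of age. In one group 3 mice received vehicle, a mixture of dipropylene glycol and water, daily on the back for 7 days, and in the other 3 mice received 3% rebamipide, a drug developed for gastric ulcer, in the same way. Each library is taken as 1 mouse. All 9 genes passed the expression filter. The comparison asked which genes of the skin differed after 7 days of rebamipide.

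Skin takes up retinol (vitamin A) from the blood, where it travels bound to the carrier Rbp4, and the membrane receptor encoded by Stra6 brings it into cells. Retinol is oxidized to retinal by dehydrogenases such as those encoded by Rdh10 and Dhrs9, and retinal is oxidized irreversibly to retinoic acid by the retinal dehydrogenases of the Aldh1a genes. Crabp1 and Crabp2 encode the proteins that carry retinoic acid inside the cell, Cyp26b1 encodes a cytochrome P450 that breaks it down, and the RAR and RXR nuclear receptors read it. Retinoic acid restrains epidermal differentiation and acts on sebaceous glands and on the hair cycle.

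Total counts were 38676018 to 39915276 per vehicle library and 32709801 to 34706852 per rebamipide library. Levels within a gene are given as CPM (read counts scaled to a common library size) after TMM normalization, and 3 counts, the limit that a count of 0 allows, correspond to 0.0601 to 0.117 CPM, which covers counting error only. The libraries differed in their levels of marker genes. The third rebamipide library had 0 counts of Krt14 and 4 counts of Krt5, the defining keratins of basal epidermis, against 26099 and 50427 or more in every vehicle library, so these keratins were absent or nearly absent from it. Ucp1, the uncoupling protein of brown fat, was at 0 in each vehicle library and at 81048 to 220449 counts after rebamipide. The summed CPM of 9 growing hair follicle genes was 15270, 6861 and 165.3 in the vehicle libraries and 819.6, 0.741 and 0.229 in the rebamipide libraries, with 0 of the 9 called by edgeR and 1 lower at an unadjusted p-value under 0.05. Fibroblast genes (7, with 0 called by edgeR and 2 lower at an unadjusted p-value under 0.05) summed to 12080 to 17850 CPM with vehicle and to 15190, 3531 and 1858 CPM with rebamipide, and the adipocyte list (7 genes, 4 called higher) to 1401 to 4197 against 9299 to 16140 CPM. The share of mitochondrial transcripts was 2.59% to 5.36% with vehicle and 13.28% to 21.96% with rebamipide, and the part of these differences in the results was not tested. In whole tissue, fewer cells of a type and less RNA per cell cannot be told apart.

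By edgeR's quasi-likelihood test 0 of the 9 genes had an adjusted p-value under 0.05, where 20.6% of the 14875 genes tested were called, 14.1% higher and 6.51% lower. At an unadjusted p-value under 0.05 edgeR counted 3 of them, Stra6, Aldh1a3 and Dhrs9, against 39.7% of all genes. DESeq2 called 2, Stra6 and Aldh1a3, both lower (adjusted p = 0.00299 and 0.000826), where it called 35.3% of all genes, and it had 5 at an unadjusted p-value under 0.05 against 44.2% of all. The limma-voom fit called 0, against 21.3% of all genes, with 4 at an unadjusted p-value under 0.05 against 40.3%. Read against these shares, the counts give no result about the members as a group. By the kind of selection named in the study's methods, p under 0.05 before adjustment with a log2 fold change beyond 1 in size, Stra6 and Aldh1a3 were lower and Dhrs9 was higher by edgeR, against 14.5% and 14.3% of all genes. With DESeq2, the tool named in the methods, 4 members (Crabp1, Crabp2, Stra6 and Aldh1a3) were lower and 1 (Dhrs9) higher by these thresholds, against 18.2% and 14.5% of all genes. In 4 genes, Crabp1, Crabp2, Stra6 and Aldh1a3, the highest treated value was below the lowest control value, as it was for 24% of all genes. The median log2 fold change of the 9 genes was -1.35, and that of all genes tested was -0.18. With scaling by total counts alone the medians were -1.85, the value of Cyp26b1, and -0.78. Single libraries decided some calls. Without the first vehicle library DESeq2 called neither Stra6 (adjusted p = 0.0765) nor Aldh1a3 (adjusted p = 0.0528), and without the second rebamipide library it did not call Stra6 (adjusted p = 0.0942). In fits without the first rebamipide library edgeR called Dhrs9 higher (adjusted p = 0.0209) and Aldh1a2 and Cyp26b1 lower (adjusted p = 0.0379 and 0.0391), with 31.2% of all genes called in that fit, and without the third it called Crabp2 lower (adjusted p = 0.048), with 9.1% of all genes called.

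**Figure D1:**
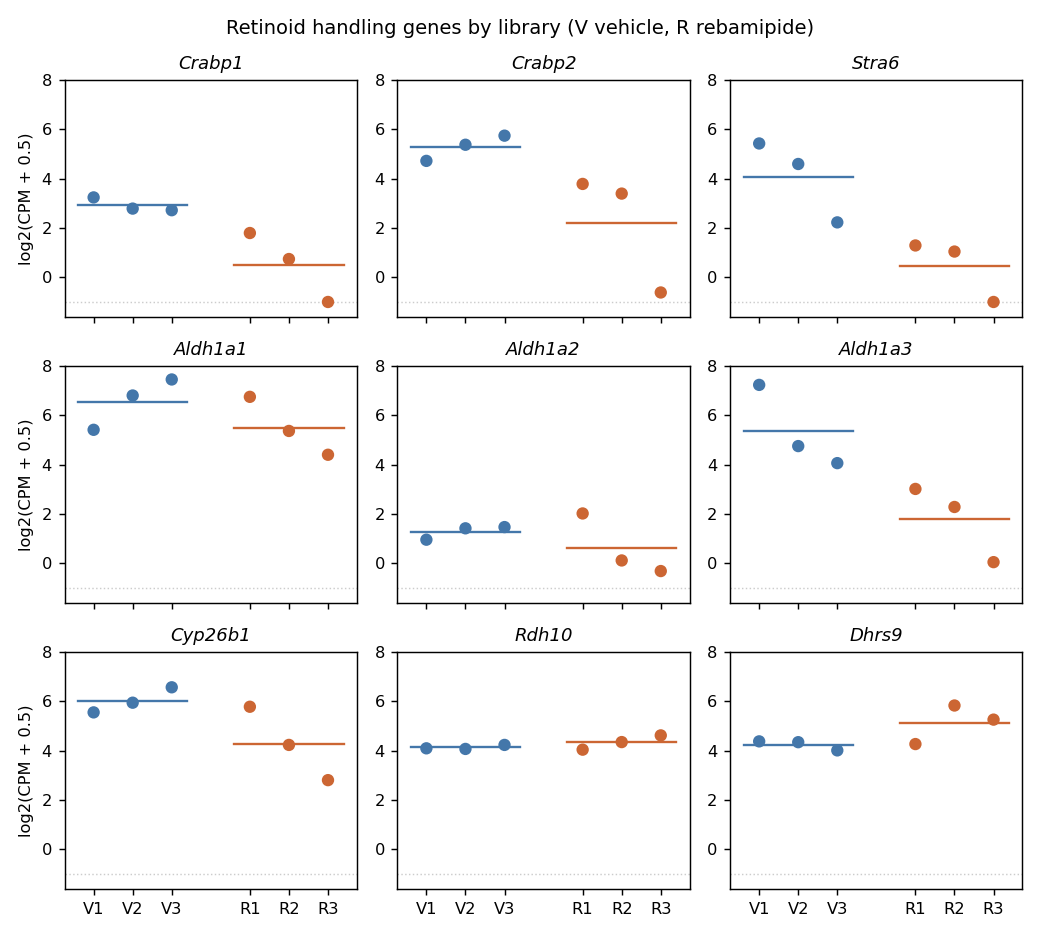
Level of each of the 9 genes in each library as log2(CPM + 0.5), with V1 to V3 the vehicle libraries, R1 to R3 the rebamipide libraries, horizontal bars the group means and a dotted line at 0 counts. Crabp1, Crabp2, Stra6 and Aldh1a3 were lower in every rebamipide library, and Rdh10 stayed between 15.94 and 24.04 CPM in all 6.

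Compared per length in vehicle-treated skin, Crabp2 had the highest mean level of the 9 genes at 37.06 ± 11.73 FPKM (SD, n = 3), and Aldh1a2 the lowest at 1.069 ± 0.222 FPKM. Between them stood Aldh1a1 (27.03 FPKM), Aldh1a3 (17.53), Cyp26b1 (15.46), Crabp1 (11.05), Dhrs9 (5.383), Rdh10 (5.077) and Stra6 (5.038). Of the neighbors in this order, only Crabp1 and Dhrs9 had ranges over the vehicle libraries that did not overlap. In rebamipide-treated skin Aldh1a1 came first (9.779 FPKM), Dhrs9 second (6.841) and Stra6 last (0.17), and of the neighbors only Rdh10 and Crabp1 did not overlap.

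Stra6 (ENSMUSG00000032327, chromosome 9, 57971071 to 58061279 in the deposited table, for which the processing notes name GRCm39) had the lowest mean FPKM of the members after treatment. It had 42.29, 23.55 and 4.17 CPM in the vehicle libraries and 1.943, 1.559 and 0 CPM in the rebamipide libraries. The vehicle libraries themselves spanned a wide range, and their lowest value, in the third library, was nearest to the treated ones. The fitted log2 fold change was -4.31 ± 1.46 (SE) (adjusted p = 0.0809, edgeR), or -3.56 without the first vehicle library and -3.72 without the third rebamipide library. The first vehicle library, where Stra6 was highest, was also the one with the highest sum of growing hair follicle genes, and of the vehicle libraries the third was lowest for both. The bulge and outer root sheath, dermal papilla and melanocyte lists had the same order of the vehicle libraries. The part of follicle growth in the values of Stra6 was not tested. Among the genes whose mean-centered log2 CPM lay closest to Stra6 over the 6 libraries were Fam83c and Trim59, at root mean square differences of 0.257 and 0.292.

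The carriers Crabp1 and Crabp2 were both about 5 times lower in mean CPM in the rebamipide group, with large errors. Crabp2 (ENSMUSG00000004885, chromosome 3, 87855973 to 87860683) had 25.74, 40.77 and 52.77 CPM in the vehicle libraries and 13.24, 9.977 and 0.153 CPM in the rebamipide libraries. The last of these is 4 counts, in the library with 0 counts of Krt14. The mean was 5.1-fold lower and the log2 fold change was -2.35 ± 1.2 (SE) (adjusted p = 0.193, edgeR). Without the third rebamipide library the log2 fold change was smaller, at -1.77, and passed. Crabp1 (ENSMUSG00000032291, chromosome 9, 54672032 to 54680394) had 8.914, 6.376 and 6.073 CPM in the vehicle libraries and 2.964, 1.169 and 0 CPM in the rebamipide libraries. Its groups did not overlap either, and its log2 fold change was -2.36 ± 1.25 (SE) (adjusted p = 0.207, edgeR), or -3.60 when the first rebamipide library was left out and -1.77 when the third was. DESeq2 called Crabp1 lower in both of these fits (adjusted p = 0.0188 and 0.00808), and Crabp2 as well (adjusted p = 0.0422 and 0.000794). Per length Crabp2 made up 75.7% ± 10.7 of the summed FPKM of both genes in the vehicle group and 85.6% ± 13.6 in the rebamipide group (p = 0.5 raw and after Benjamini-Hochberg adjustment over 4 shares, two-sided exact permutation test, n = 3 each, smallest possible p 0.1). The share of 100% in the third rebamipide library rested on 4 counts of Crabp2 and 0 of Crabp1. Without that library the difference between the groups was 2.69 percentage points in place of 9.88. Closest in pattern to Crabp2 was Rdh12, a retinal reductase gene, at a root mean square difference of 0.142, and closest to Crabp1 was Lpar3, a lysophosphatidic acid receptor gene, at 0.111.

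The retinal dehydrogenase genes did not follow one pattern. Aldh1a3 (ENSMUSG00000015134, chromosome 7, 66040638 to 66077265) had 149.3, 26.38 and 16.16 CPM in the vehicle libraries and 7.574, 4.365 and 0.534 CPM in the rebamipide libraries. Every treated library was below every control, and the first vehicle library was far above the other two. Its log2 fold change was -3.94 ± 1.25 (SE) (adjusted p = 0.0691, edgeR), and without the first vehicle library it was -2.35 (adjusted p = 0.175). Aldh1a1 (ENSMUSG00000053279, chromosome 19, 20470079 to 20620829) was highest where Aldh1a3 was not, with 41.95, 110.7 and 173.9 CPM in the vehicle libraries and 106.6, 40.61 and 20.57 CPM in the rebamipide libraries. The groups overlapped, and the log2 fold change was -0.96 ± 0.73 (SE) (adjusted p = 0.355, edgeR). It was -0.42 without the third vehicle library, -0.56 without the third rebamipide library and -1.83 without the first rebamipide library, where DESeq2 called it lower (adjusted p = 0.0195). Aldh1a2 (ENSMUSG00000013584, chromosome 9, 71123071 to 71203525) had the lowest FPKM of the 9 genes with vehicle, and it had 1.442, 2.173 and 2.267 CPM in the vehicle libraries and 3.556, 0.585 and 0.305 CPM in the rebamipide libraries. The first rebamipide library was the highest of all 6 and the other two the lowest, so that no direction can be given (log2 fold change -0.40 ± 0.9 SE, adjusted p = 0.765, edgeR). Without the third rebamipide library the sign turned (0.09). The genes closest in pattern were Lgi2, Hoxd9 and Chga for Aldh1a1 (root mean square differences of 0.0889 to 0.13), Obsl1, Scx, a tendon transcription factor gene, and Csf2ra for Aldh1a2 (0.121 to 0.144), and Slc27a6, Etv4 and Spint1 for Aldh1a3 (0.342 to 0.447). Aldh1a3 thus had the most distant closest genes of the 9 members.

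Since a share within a library does not depend on how libraries are scaled, the makeup of the Aldh1a genes was followed per length. Aldh1a3 took 77.98%, 19.64% and 8.813% of their summed FPKM in the vehicle libraries and 6.612%, 10.03% and 2.62% in the rebamipide libraries. Aldh1a1 took 20.49%, 77.06% and 88.67% against 87.06%, 87.24% and 94.33%. In both measures the groups overlapped, because the third vehicle library stood among the treated ones. The mean share of Aldh1a1 differed by 27.5 percentage points (p = 0.3, adjusted 0.5, two-sided exact permutation test, n = 3 each), and without the first vehicle library by 6.68. For the Aldh1a3 share the exact permutation p was 0.2 and for that of Aldh1a2 0.4, both 0.5 after adjustment. The order of the vehicle libraries by the Aldh1a3 share was also their order by the growing hair follicle list. The bulge and outer root sheath, dermal papilla and melanocyte lists had this order too.

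**Figure D2:**
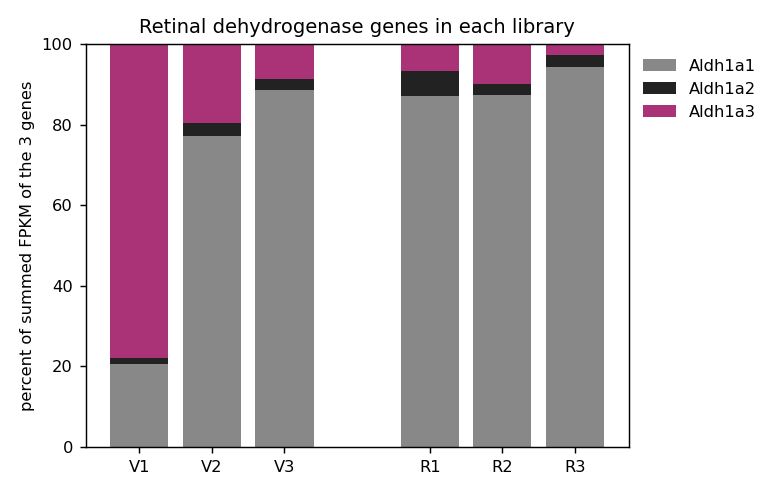
Share of Aldh1a1, Aldh1a2 and Aldh1a3 in their summed FPKM (vertical axis, percent) in each vehicle (V) and rebamipide (R) library. Aldh1a3 led in the first vehicle library alone (77.98%) and was between 2.62% and 19.64% in the other libraries.

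Cyp26b1 (ENSMUSG00000063415, chromosome 6, 84548396 to 84570890), which encodes the enzyme that clears retinoic acid, had 46.31, 60.94 and 94.17 CPM in the vehicle libraries and 54.33, 18.28 and 6.488 CPM in the rebamipide libraries. The first rebamipide library lay inside the range of the controls, and the other two lay below it. The log2 fold change was -1.35 ± 0.75 (SE) (adjusted p = 0.223, edgeR), and without the first rebamipide library it was -2.43. Among the treated libraries the fibroblast list also had its highest sum in the first and its lowest in the third, as did every other marker list except the adipocyte, brown adipocyte and endothelial ones. As a percent of the summed CPM of the fibroblast list, Cyp26b1 was 0.383, 0.441 and 0.528 in the vehicle libraries and 0.358, 0.518 and 0.349 in the rebamipide libraries. By this measure the groups overlapped, and the 6 libraries spanned a 1.51-fold range where the CPM spanned 14.5-fold. This was the narrowest range of the 5 lists tried, which gave 2.36-fold with the sebaceous gland list, 3.03-fold with the basal keratinocyte list, 82.2-fold with the adipocyte list and 111-fold with the bulge and outer root sheath list. The last rests on 378% in the third rebamipide library, where that list summed to 1.717 CPM, and the other libraries ran from 3.4% to 15.7%. Against the fibroblast list Aldh1a2 also narrowed, to 1.96-fold from 11.6-fold in CPM. Aldh1a1, Crabp2 and Aldh1a3 narrowed too, and Rdh10 and Dhrs9 widened. The genes closest to Cyp26b1 in pattern were Timp1, a metalloproteinase inhibitor gene, Aebp1 and Mcoln2, at root mean square differences of 0.141 to 0.169.

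The same comparison, added after the data were seen and given without a test, was made for every member against 5 marker lists. Crabp2 was 1.18%, 1.1% and 1.64% of the summed CPM of the basal keratinocyte list (6 genes, 0 called by edgeR and 2 lower at an unadjusted p-value under 0.05) in the vehicle libraries and 1.22%, 1.44% and 0.106% in the rebamipide libraries. The first and second rebamipide libraries were thus inside the range of the controls, and the third, with 0 counts of Krt14, was not. In that library Itga6 made up 129.3 of the 144.3 CPM of the list, so percents of this list there are mostly ratios to Itga6. Against the bulge and outer root sheath list Crabp2 was 1.89%, 3.52% and 6.69% with vehicle. With rebamipide it was 3.81%, 7.01% and 8.89%, the last from 4 counts. Crabp1 was 0.551% to 0.769% of the bulge and outer root sheath list in the vehicle libraries and 0.854%, 0.822% and 0% in the rebamipide libraries. In the third rebamipide library this list summed to 1.717 CPM, with 4 of its 6 genes at 0. The limit of 3 counts, 0.114 CPM there, is a larger part of that sum than any other Crabp1 percent of this list. The 0% thus cannot show a fall. Against the fibroblast list Crabp1 was lower in every rebamipide library, at 0% to 0.0331% against 0.034% to 0.0738%. Aldh1a3 against the basal keratinocyte list was 6.86%, 0.714% and 0.502% in the vehicle libraries and 0.697%, 0.63% and 0.37% in the rebamipide libraries. Stra6 against the same list was 1.94%, 0.638% and 0.129% in the vehicle libraries and 0.179%, 0.225% and 0% in the rebamipide libraries. Over the 9 members, 4 were above all controls in every rebamipide library against the basal keratinocyte list (Aldh1a1, Aldh1a2, Rdh10 and Dhrs9) and 0 below, where 66.9% of all genes tested were above. Against the bulge and outer root sheath list 5 were above (77.4% of all genes), Cyp26b1 and the same 4, against the sebaceous gland list 2 (Rdh10 and Dhrs9, 62.4% of all genes), and against the fibroblast list 1, Aldh1a2 (26.2%), with Crabp1 below (2.54%). Against the adipocyte list 8 were below, where 87% of all genes were, and Dhrs9 overlapped. The summed CPM of these lists, other than the fibroblast list, did not themselves overlap between the groups.

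**Figure D3:**
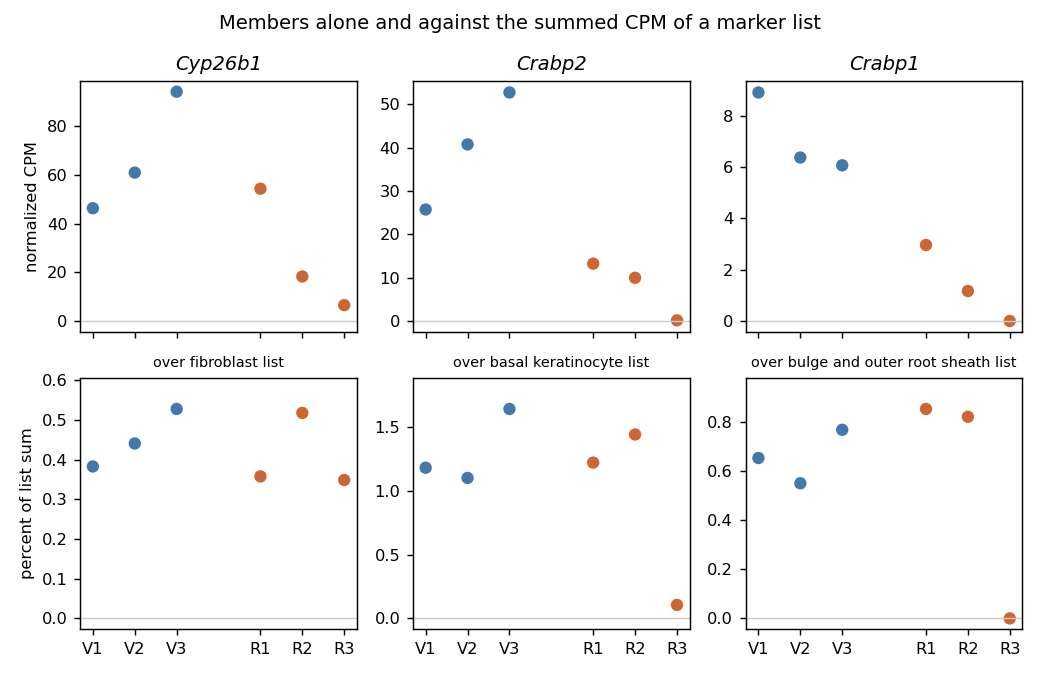
Upper row, normalized CPM of Cyp26b1, Crabp2 and Crabp1 in the vehicle (V) and rebamipide (R) libraries; lower row, the same genes as a percent of the summed CPM of the fibroblast, basal keratinocyte and bulge and outer root sheath lists. Cyp26b1 over the fibroblast list lay between 0.349% and 0.528% in all 6 libraries, and the third rebamipide library was lowest for Crabp2 and Crabp1 in CPM. In the lower row its basal keratinocyte sum was mostly Itga6. Its bulge and outer root sheath sum of 1.717 CPM was too small to resolve Crabp1.

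The retinol dehydrogenase genes were the 2 members with a fitted log2 fold change above 0. Rdh10 (ENSMUSG00000025921, chromosome 1, 16175998 to 16203958), whose enzyme makes retinal from retinol, had 16.57, 16.28 and 18.28 CPM in the vehicle libraries and 15.94, 19.84 and 24.04 CPM in the rebamipide libraries. The groups overlapped and the spread was the smallest of the members relative to the level. Its log2 fold change was 0.23 ± 0.23 (SE) (adjusted p = 0.486, edgeR), and the sign turned to -0.41 with scaling by total counts alone. The deposited FPKM, which are scaled that way, were 5.086, 4.83 and 5.314 against 3.557, 3.559 and 4.363. The third rebamipide library, which had next to no Krt14 or Krt5, had the highest CPM of Rdh10. Its closest genes in pattern were Erp44, Atg3 and Rpain, at root mean square differences of 0.0587 to 0.0788.

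Dhrs9 (ENSMUSG00000027068, chromosome 2, 69210789 to 69234877), which encodes a short-chain dehydrogenase that acts on retinol and on hydroxysteroids, was the member with the highest fitted fold change. It had 20.25, 19.78 and 15.61 CPM in the vehicle libraries and 18.74, 56.28 and 37.7 CPM in the rebamipide libraries. The second rebamipide library and the third were above all controls and the first was among them. The mean was 2.03-fold higher, and the log2 fold change was 1.02 ± 0.41 (SE) (adjusted p = 0.118, edgeR). It was 0.35 with total counts as the only scaling and 0.24 on log2(FPKM + 1), and 0.61 without the second rebamipide library. The libraries with the most Dhrs9 were those with the least growing hair follicle signal and the largest brown adipocyte sums, 13430 and 11130 CPM against 5196 CPM in the first rebamipide library and at most 535.6 CPM in the vehicle group. The part of brown fat in the level of Dhrs9 was not tested. Ccdc125, Nap1l5 and Tmx4 were closest to Dhrs9 in pattern, at root mean square differences of 0.114 to 0.154.

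RAR and RXR bind paired copies of a hexamer close to AGGTCA, and the stretches before the start sites were searched for it because several members are known to respond to retinoic acid. The RefSeq promoter table (GRCm38.p6) held 10 start sites of 6 members. Crabp2, Aldh1a3 and Rdh10 were not among them. In the 250 bases before each start, AGGTCA on either strand was found in 1 of these 10 and in 14% of all 32851 promoters. Direct repeats of a looser hexamer, with A or G as its first letter and G or T before the closing TCA, spaced by 1, 2 or 5 bases were found in 0 of the 10 and in 0.164%, 0.174% and 0.0883% of all promoters. The letters TATAAA on either strand were found in 2 of the 10 and in 12.4% of all. The hexamer of Dhrs9 and the TATAAA of Cyp26b1 are shown in capitals, as examples from the member with the highest fold change and from the gene of retinoic acid breakdown, with the matched letters starting 88 and 139 bases before the start sites.
Dhrs9 (chr2:69380362-69380391, plus strand, reverse complement of AGGTCA): tttggaaacctgTGACCTacaatctccccg
Cyp26b1 (chr6:84593932-84593961, minus strand): caggtttcaggcTATAAAgggctcttggct
These matches describe the letters only.

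The other genes of the pathway, 37 in a list drawn up by their roles, included genes that rose and genes that fell. Of these, 31 were tested, and edgeR called 9 higher and 6 lower after adjustment, where 20.6% of all genes were called in either direction. The median log2 fold change of those tested was -0.76, and it was the same with Rdh16 set to its bound. In the fits without the second vehicle library or without the second rebamipide library edgeR called 0 of them in either direction, where it called 0 genes and 1 gene in all, with 4116 and 4062 at an unadjusted p-value under 0.05. It called 2 lower without the first vehicle library (2.52% of all genes) and 5 higher without the third rebamipide library (6.6%). DESeq2 without the second vehicle or second rebamipide library called 8 and 10 higher, against 14% and 17.5% of all genes, and 7 and 10 lower, against 9.53% and 14.8%. In these fits limma-voom called 1 and 1 higher (1.4% and 1.67% of all genes) and 0 and 0 lower (0.0468% and 0.0913%).

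**Figure D4:**
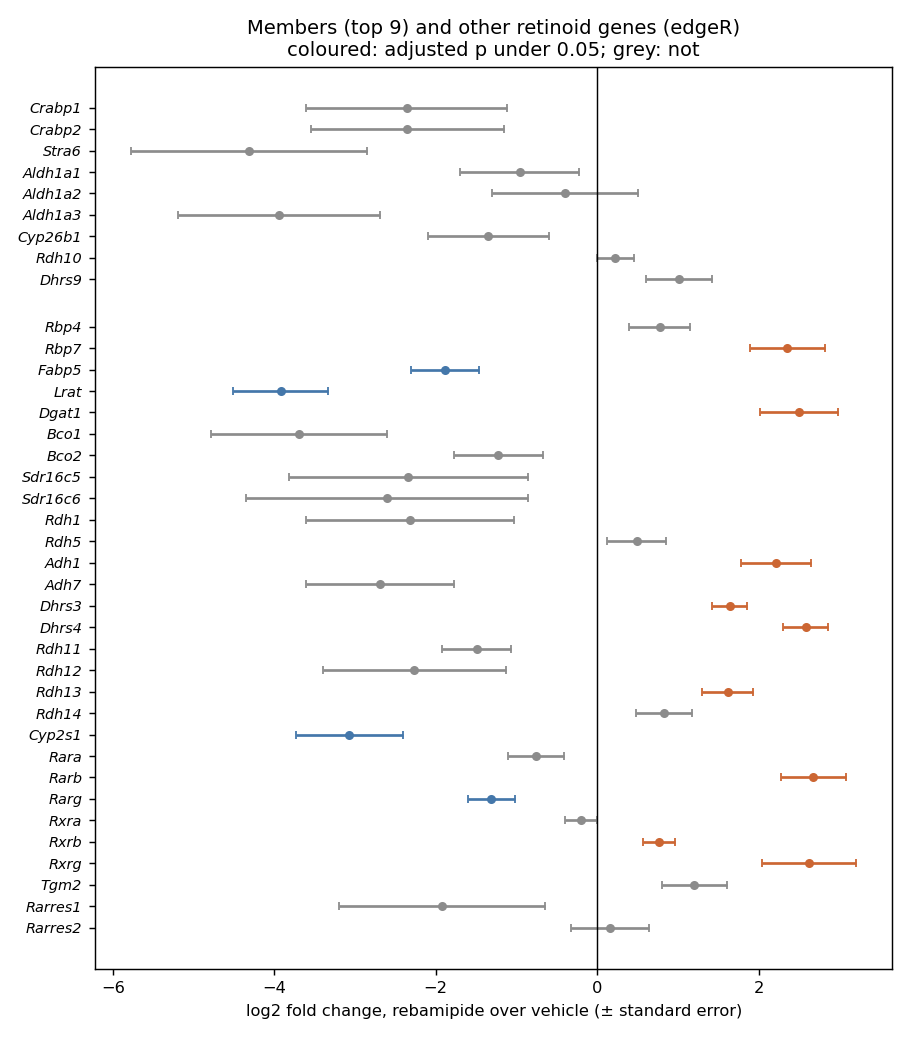
Log2 fold change, rebamipide over vehicle, with its standard error from edgeR for the 9 members (top) and 29 of the 31 other retinoid genes tested. Rdh16, which was at or under 3 counts in the rebamipide libraries, and another gene are not drawn. Orange and blue points passed an adjusted p-value under 0.05 as higher and lower, and grey points, all 9 members among them, did not.

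Among uptake and carrier genes, Fabp5, a lipid carrier that can also hold retinoic acid, fell from 690.4 ± 137 to 187.5 ± 84.8 CPM (adjusted p = 0.0297, edgeR). Rbp7, a retinol carrier gene of fat and blood vessels, rose from 3.68 ± 1.73 to 18.9 ± 6.4 CPM (adjusted p = 0.0213, edgeR). The endothelial list (6 genes) had 3 genes called higher, with sums of 233.2 to 562.3 against 1058 to 1449 CPM, and Vwf of this list overlapped (61.1 ± 30.2 and 53.4 ± 30.9 CPM). Its part in the level of Rbp7 was not tested. Rbp4 was at 44 ± 20.5 and 75.2 ± 12.4 CPM and did not pass.

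In storage, the enzyme genes went opposite ways. Lrat, the main retinol esterifying enzyme, had 9.194, 5.117 and 3.207 CPM in the vehicle libraries and 0.527, 0.39 and 0.229 CPM in the rebamipide libraries. Every treated library was far below the lowest control, and it fell by 3.92 on the log2 scale (standard error 0.588, adjusted p = 0.0118, edgeR). Dgat1, which makes triglyceride and can also esterify retinol, rose from 45.6 ± 22.2 to 258.1 ± 95.6 CPM (adjusted p = 0.0202, edgeR). Of the genes that cleave carotenoids, Bco1 was below in every rebamipide library and did not pass (adjusted p = 0.0588, edgeR), and Bco2 overlapped.

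Among the genes of retinol oxidation, 7 of 8 were tested. Adh1, an alcohol dehydrogenase, rose from 17.4 ± 7.79 to 81 ± 22.2 CPM (adjusted p = 0.0214, edgeR). Rdh16 had 54, 34 and 25 counts in the vehicle libraries and 1, 0 and 0 in the rebamipide libraries, at least 6.9-fold lower against a limit of 3 counts per library (adjusted p = 0.0141, edgeR). Sdr16c5 and Sdr16c6, whose enzymes oxidize retinol in epidermis, each had 0 counts in the third rebamipide library and were below in all treated libraries, at 8.71 ± 8 against 44.2 ± 19.5 CPM and 38.8 ± 33.7 against 236 ± 140 CPM, without passing. Adh7 was at 39.2 ± 22.5 CPM with vehicle and at 6.08 ± 5.53 CPM with rebamipide (adjusted p = 0.0819, edgeR).

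Of 6 genes of retinal reduction, 3 rose. Dhrs4, a peroxisomal retinal reductase, had 25.7, 25.24 and 25.53 CPM in the vehicle libraries and 100.6, 168.2 and 189.9 CPM in the rebamipide libraries. The controls were almost level and every treated library was far above them (log2 fold change 2.58 ± 0.28 SE, adjusted p = 0.00939, edgeR). Dhrs3, which turns retinal back into retinol, had 35.01, 43.13 and 52.81 CPM in the vehicle libraries and 123.5, 131.1 and 154.6 CPM in the rebamipide libraries (log2 fold change 1.64 ± 0.22 SE, adjusted p = 0.0101, edgeR). Rdh13, a mitochondrial enzyme, rose from 21.2 ± 0.17 to 65.3 ± 23.9 CPM (adjusted p = 0.0208, edgeR). Rdh11 was lower in every rebamipide library, at 41.5 ± 19 against 116.7 ± 35.1 CPM, with an unadjusted p of 0.0126 and an adjusted p of 0.0561 by edgeR. In the same direction as the risen genes moved the brown adipocyte list, with 7 of its 8 genes called higher and sums of 177.3 to 535.6 against 5196 to 13430 CPM. Its part in these values was not tested.

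Of the genes that break down retinoic acid, Cyp26a1 and Cyp26c1 had at most 2 counts in any library, so Cyp26b1 was the only member of its family detected above the limit of 3 counts. Cyp2s1, a related P450 of skin, fell from 16.4 ± 9.4 to 1.95 ± 1.02 CPM (adjusted p = 0.0277, edgeR). In the direction of the genes that fell, the summed CPM of the basal keratinocyte list was 2178 to 3693 with vehicle and 144.3 to 1086 with rebamipide, and that of the sebaceous gland list (6 genes, 1 called lower) was 427.6 to 711.9 and 43.93 to 218.8. Their part in the levels of Fabp5, Lrat, Cyp2s1, Rarg, Sdr16c5 and Sdr16c6 was not tested.

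The receptor genes were divided. Rarg, the main retinoic acid receptor gene of epidermis, had 139.6, 118.9 and 93.27 CPM in the vehicle libraries and 63.45, 44.62 and 33.89 CPM in the rebamipide libraries, and it fell by 1.31 on the log2 scale (standard error 0.292, adjusted p = 0.0293, edgeR). Rarb, a receptor gene that is also a direct target of retinoic acid, had 0.821, 0.63 and 1.24 CPM in the vehicle libraries and 4.775, 6.586 and 5.915 CPM in the rebamipide libraries (log2 fold change 2.68 ± 0.4 SE, adjusted p = 0.0117, edgeR). Every treated library was well above the highest control. Rxrg, the RXR gene typical of muscle, had 3.065, 7.107 and 14.24 CPM in the vehicle libraries and 35.7, 54.05 and 60.83 CPM in the rebamipide libraries (log2 fold change 2.63 ± 0.58 SE, adjusted p = 0.0291, edgeR). The skeletal muscle list (7 genes) had 0 called by edgeR, 0 at an unadjusted p-value under 0.05, and overlapped between groups, and it was lowest, at 245.9 CPM, in the third rebamipide library. The adipocyte list had its lowest to highest sums in the same order of the 6 libraries as Rxrg, at 1401, 2524 and 4197 CPM with vehicle and 9299, 13650 and 16140 CPM with rebamipide. This order was not particular to fat. The endothelial list, at 233.2, 354.5 and 562.3 against 1058, 1231 and 1449 CPM, and the share of mitochondrial transcripts had it too. The part of muscle, fat or vessels in the level of Rxrg was not tested. Rxrb was at 29.7 ± 4.13 and 50.6 ± 6.82 CPM and passed (log2 fold change 0.77, adjusted p = 0.042, edgeR), but with total counts as the only scaling it did not (log2 fold change 0.14). Rara and Rxra, both broadly expressed receptor genes, were at 27.3 ± 4.5 and 16.2 ± 7 CPM and at 203.1 ± 18.6 and 177.3 ± 23.6 CPM and did not pass. Of the 3 retinoic acid responsive genes, 0 passed with edgeR at an adjusted p-value under 0.05 and 1 at an unadjusted one, Tgm2, with an unadjusted p of 0.0232 (81.3 ± 37.6 against 187.2 ± 19.7 CPM, adjusted p = 0.0788).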

How the data were processed

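One poly-A RNA-seq library per mouse was analysed for 3 vehicle-treated and 3 rebamipide-treated mice. The authors deposited whole-number read counts and FPKM per gene. The deposited FPKM are those counts per gene length and library total. The submitters' processing notes name fastp 0.22.0, HISAT2 2.1.0, HTSeq 0.9.1 and GRCm39. Coordinates are those of the table.

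Counts were tested in R 4.3.3 with edgeR 4.0.16 (TMM, filterByExpr, quasi-likelihood test, Benjamini-Hochberg adjustment over 14875 genes). The standard error is the log2 fold change divided by the square root of F. All 12 value columns matched a sample, and replicates differed beyond sampling noise (chi-square over its degrees of freedom, 79.08 to 713.6). The members and lists were chosen with earlier results of these data known. Genes named are the members, receptors, pathway genes at an unadjusted p under 0.05, the markers given and, for members, genes of closest pattern among 13377 others with a mean of at least 50 counts. Bco2, Rbp4, Sdr16c5, Sdr16c6, Cyp26a1, Cyp26c1 and Vwf were named after their values were seen. Alternatives were DESeq2 1.42.0, limma 3.58.1 (voom, and log2(FPKM + 1)), RLE, upper quartile or total counts scaling, other filters, a replicate block and each library left out. The tests were tested on simulated data first. Some genes that met the naming rule are counted but not reported here.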

Additional observations from a re-analysis of the deposited data

How the results depend on the processing

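Of the members called lower by edgeR (0), there were 1 with scaling by total counts alone (25.2% of all genes called lower in that fit), 1 with at least 10 counts in every sample (11.9%), 2 with DESeq2 (17%) and 5 with limma on log2(FPKM + 1) (32.3%). With the thresholds of the study, 1 member was higher in the main fit, where 14.3% of all genes were. The count was 0 with upper quartile scaling (13.1% of all genes), total counts alone (7.59%), no filter (12%), at least 10 counts in every sample (14.7%), limma-voom (14.2%) or log2(FPKM + 1) (5.91%). By these thresholds 2 were lower (14.5% of all genes), against 1 with at least 10 counts (14.9%), 4 with DESeq2 (18.2%), 4 with limma-voom (15.2%) and 5 with log2(FPKM + 1) (20.5%). The 6 pathway genes called lower became 15 with log2(FPKM + 1), where the share of all genes called lower went from 6.51% to 32.3%. Rdh10 turned to -0.41 with total counts alone and to -0.34 with log2(FPKM + 1), and Aldh1a2 to 0.0911 (edgeR) and 0.111 (DESeq2) without the third rebamipide library, against -2.13 (edgeR) without the first. The causes were not tested.

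Leaving out 1 library at a time, with edgeR, DESeq2 or limma-voom, members higher ranged from 0 to 1 and members lower from 0 to 7, with the thresholds of the study from 0 to 1 and from 0 to 7 (both 7 with DESeq2 without the first rebamipide library, where 27.3% and 24.6% of all genes passed as lower). Pathway genes higher ranged from 0 to 12 and lower from 0 to 13 (both 9 with edgeR without the first rebamipide library, where 18.3% and 12.8% of all genes were called). The 12 came with DESeq2 without the third vehicle library (22.6% of all genes). The 13 came with DESeq2 without the first or the third rebamipide library (27.3% and 12.2%). The Aldh1a1 share difference ranged from 6.68 to 40.8 percentage points and the Crabp2 share difference from 2.69 to 16.2.

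With the replicate number as a block, edgeR called 2 members lower, Stra6 (adjusted p = 0.0453) and Aldh1a3 (adjusted p = 0.0299), with 5.75% of all genes called lower in that fit. By the thresholds of the study 0 members were higher there (13.9% of all genes), and 7 pathway genes were called higher (9.63% of all genes). Deviations of same-numbered samples correlated at -0.07, -0.03 and -0.04. No pairing by number was seen, but deviations from means of so few libraries cannot show that nothing else was shared.

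Of the members' values under the alternatives, 4 changed sign. Of the pathway genes, alternatives were run for the receptors and for those with an unadjusted p under 0.05, where 0 values changed sign; the others were not run. The depth leaves 3 counts as the limit of detection, which holds Stra6 and Crabp1 in the third rebamipide library.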
